A study of Mus musculus with 9 samples.

Results

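A set of 9 genes that mark alveolar macrophages was followed through the lungs of mice given 2 forms of the mould Aspergillus fumigatus. They are Car4, Fabp1, Pparg, Ear2, Krt79, Mrc1, Itgax, Plet1 and Siglecf, taken as the rows of the gene tables that carry exactly these symbols. All 9 of the 9 were found among the 18983 genes listed, and all 9 passed the filter on low values, which left 13761 genes for testing. The mice were C57BL/6. A group of 3 control libraries came from mice that received normal saline into the trachea, 3 came from mice given conidia (dormant airborne spores), and 3 from mice given hyphae (the growing filaments). The lungs were taken 24 hours after inoculation in all 3 groups, so the procedure and the time are shared. The labels name whole lung, give no age or sex, and leave unstated whether each library is a different mouse. If it is not, p-values cover the spread among samples only, and that spread could be technical.

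Alveolar macrophages live in the air spaces, where they clear surfactant and are among the first cells to meet inhaled spores. Their identity is set after birth by the cytokine GM-CSF (gene Csf2), made largely by the alveolar epithelium, together with TGF-beta. These signals switch on the lipid-activated nuclear receptor PPAR-gamma, which drives genes for lipid uptake and breakdown. The cells are recognised by high levels of the lectin Siglec-F and the integrin CD11c together with the mannose receptor CD206. None of these genes is made by alveolar macrophages alone, and in bulk tissue fewer cells of a type and less RNA per cell cannot be told apart.

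The values are FPKM, the fragments assigned to a gene per kilobase of transcript, scaled by the mapped fragments of the library, so levels can be compared between genes. Summed FPKM per library lay between 492540 and 561250. The files hold no counts, and the spacing of the lowest values put the depth at between 17.1 and 18.7 (in units of 1e+06 fragments per library), or between 21.4 and 23.0 if 150 bases are taken off each transcript for the fragment length. At the first of these depths the highest member, Car4, rested on about 1829 to 3202 fragments per library, and the lowest, Siglecf and Fabp1, on about 41 to 142 and 14 to 83. The whole hyphae group was shifted. The median gene differed by −0.37 on the log2(FPKM + 1) scale between hyphae and control, by −0.29 between hyphae and conidia and by −0.07 between conidia and control. Differences are therefore given as deposited, and many also after rescaling the libraries by median-of-ratios factors, which puts the median gene near 0 by construction. A difference with no rescaled value beside it holds for the deposited scale only.

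Libraries of one group were not alike. Control replicate 1 held a summed level of 838 FPKM over 7 adipose markers, against 38.9 and 103 FPKM in the other control libraries. Conidia replicate 2 held 877 FPKM over 12 neutrophil markers, against 3170 and 2278 FPKM in the other conidia libraries, and 117 FPKM over 6 B cell markers, against 24.8 and 30.8 FPKM. Its B cell sum lay within the control range of 84.3 to 154 FPKM. For some of the results that rest on these libraries, fits without them are also given.

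The cell type was visible in the controls. Marco, a scavenger receptor for inhaled particles, stood at 12.74, 5.11 and 4.07 FPKM in the 3 control libraries, and Chil3, a chitinase-like protein abundant in these cells, at 70.73, 98.33 and 141.17 FPKM. The macrophage genes Cd68, Mertk and Adgre1 had control means of 23.3, 10.7 and 3.79 FPKM. Among the 9 members, control means ran from 97.2 ± 12.0 FPKM (SD, n = 3) for Car4 through 43.4 ± 13.5 FPKM for Ear2, 34.9 ± 5.16 FPKM for Plet1, 10.1 ± 1.11 FPKM for Itgax, 8.63 ± 0.80 FPKM for Mrc1, 8.10 ± 3.60 FPKM for Pparg, 6.11 ± 3.32 FPKM for Fabp1 and 3.75 ± 1.01 FPKM for Krt79 to 2.59 ± 0.43 FPKM for Siglecf. Of the neighbours in this order, Car4 and Ear2, Plet1 and Itgax, and Krt79 and Siglecf did not overlap between control libraries, and the others did. Car4 lay above every other member in each of the 9 libraries.

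**Figure D1:**
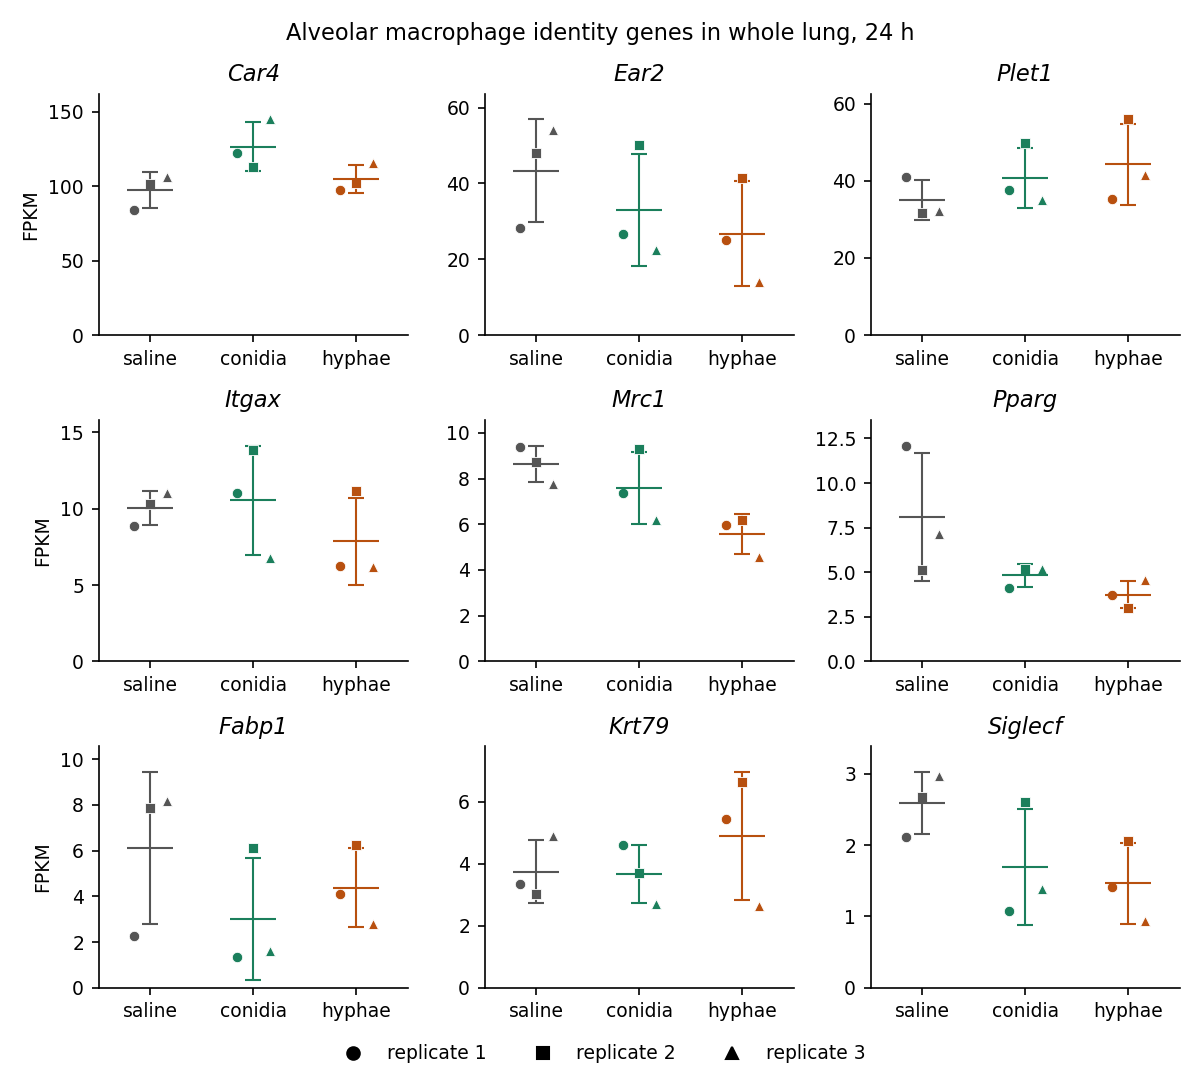
FPKM (vertical axes, from 0) of the 9 genes in the control (saline), conidia and hyphae groups; symbols are libraries by replicate number, the horizontal bar is the group mean and the error bar 1 SD (n = 3). All 3 hyphae libraries lie below all 3 control libraries for Mrc1, Pparg and Siglecf, on the deposited scale.

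Few of the 9 genes passed a test between groups. In hyphae against control, 2 of 9 fell on the deposited scale (Pparg and Mrc1) and 0 of 9 rose, at an adjusted p under 0.05 in limma. After rescaling, neither passed, and 2 other members (Car4 and Plet1) rose. In conidia against control 0 of 9 passed on either scale, and in hyphae against conidia 0 of 9 passed on either scale. These counts stand against a background in which 64.9% of all tested genes passed in hyphae against control (59.3% after rescaling), 0.69% in conidia against control (0.342% after rescaling) and 55.2% in hyphae against conidia (50.8% after rescaling). By direction, 14.9% of all tested genes rose and 50% fell in hyphae against control as deposited (30% and 29.3% after rescaling), and 12.7% were higher and 42.5% lower in hyphae against conidia (25.4% and 25.4% after rescaling); the counts of each list further on stand beside these shares. For hyphae against control, 2 of 9 is a smaller share than the background on both scales. The median difference of the 9 genes was −0.36 in hyphae against control (0.03 rescaled), beside −0.37 over all tested genes. It was −0.18 in conidia against control, beside −0.07 over all tested genes.

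**Figure D2:**
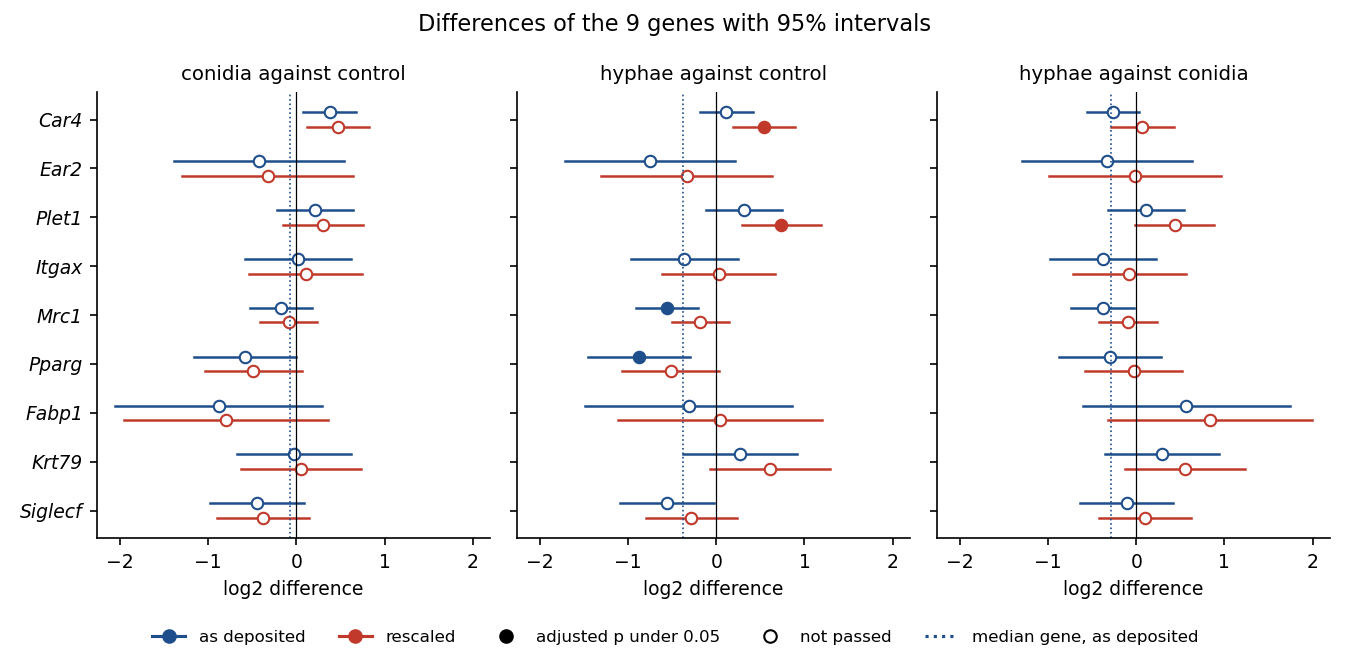
Log2 differences (horizontal axes) with 95% intervals for the 9 genes in 3 comparisons, as deposited (blue) and rescaled (red); filled points passed an adjusted p of 0.05 and the dotted line is the median gene as deposited. Pparg and Mrc1 pass as deposited in hyphae against control and Car4 and Plet1 pass only after rescaling.

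Pparg (Entrez 19016) encodes the nuclear receptor itself. Its levels were 12.09, 5.10 and 7.12 FPKM in the control libraries, 4.10, 5.21 and 5.16 FPKM in the conidia libraries, and 3.73, 2.99 and 4.54 FPKM in the hyphae libraries. Control replicate 1 was far above the rest, and all 3 hyphae libraries lay below all 3 control libraries, while conidia and control overlapped. Relative to control, Pparg in hyphae fell by 0.88 on the log2 scale (SE 0.26, adjusted p = 0.0143), with a hyphae mean 0.463 times the control mean. After rescaling the difference was −0.52 (adjusted p = 0.0941), and −0.24 (adjusted p = 0.296) if control replicate 1 was also left out, and at equal upper quartiles it was −0.67 (adjusted p = 0.0421). Without control replicate 1 alone the deposited difference was −0.58 (adjusted p = 0.0307), and without hyphae replicate 2 it was −0.76 (adjusted p = 0.0549). In conidia against control the difference was −0.58 (SE 0.26, adjusted p = 0.237), and in hyphae against conidia −0.30 (95% interval −0.88 to 0.28). Rescaled, these 2 differences were −0.49 and −0.03.

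Pparg is also the master regulator of fat cells, and the adipose markers Adipoq, Plin1, Cfd, Lep, Retn, Adrb3 and Cidea followed it within groups. Their summed level was 838, 38.9 and 103 FPKM in control, 21.5, 95.1 and 184 FPKM in conidia, and 35.4, 10.3 and 378 FPKM in hyphae. Within control and within hyphae the 3 libraries had the same order for Pparg and for this sum, and in conidia the lowest library was the same. Adipoq, the adipokine adiponectin, reached 72.18 FPKM in control replicate 1 and 0.22 FPKM in hyphae replicate 2, the libraries with the highest and the lowest Pparg. Of the 6 adipose markers tested, 0 rose and 1 fell in hyphae against control. The part of this tissue in the Pparg difference was not tested. Fabp4, a fatty acid carrier of both alveolar macrophages and fat cells, ranged from 23.7 to 500.2 FPKM with no group standing apart.

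**Figure D3:**
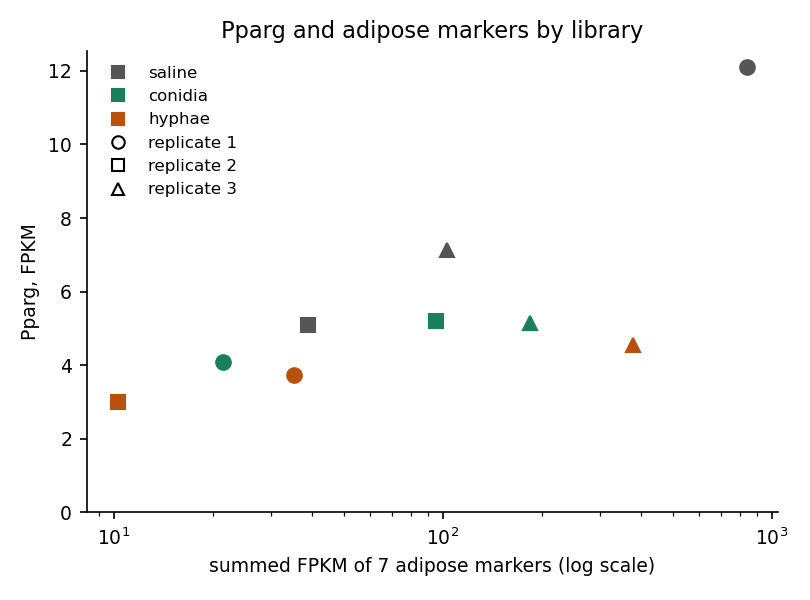
Pparg in FPKM (vertical axis, from 0) against the summed FPKM of 7 adipose markers (horizontal axis, log scale) in each of the 9 libraries; colours are groups and symbols replicate numbers. Control replicate 1 is highest on both axes (12.09 and 838 FPKM) and hyphae replicate 2 lowest on both (2.99 and 10.3 FPKM).

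Among the surface receptors, Mrc1 (Entrez 17533), the mannose receptor CD206 that binds fungal and other glycans, gave the steadier fall. It stood at 9.37, 8.74 and 7.78 FPKM in control, 7.35, 9.28 and 6.17 FPKM in conidia, and 5.96, 6.20 and 4.57 FPKM in hyphae. Every hyphae library lay below every control library, and 2 of the 3 hyphae libraries lay below the lowest conidia library. In hyphae against control Mrc1 fell by 0.56 (SE 0.16, adjusted p = 0.0121), and the call was kept in all 9 fits that left out 1 library, with differences from −0.63 to −0.44. It was lost on rescaling (−0.18, adjusted p = 0.305) and on scaling to equal upper quartiles (−0.34, adjusted p = 0.0747), the rescaled 95% interval being −0.51 to 0.15. In hyphae against conidia the difference was −0.38 (adjusted p = 0.0655, or 0.0351 without conidia replicate 3), and in conidia against control −0.18 (95% interval −0.53 to 0.18). Rescaled, the first was −0.09 (adjusted p = 0.616) and the second −0.09 (adjusted p = 0.744).

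CD206 is also carried by interstitial macrophages and lymphatic endothelium. Of 15 interstitial and monocyte-derived macrophage markers, 6 fell and 0 rose in hyphae against control (3 fell and 2 rose after rescaling), beside 50% falling over all tested genes (29.3% after rescaling). Among those that fell were Ccr2, the monocyte chemokine receptor, from a control mean of 12.5 to 1.16 FPKM, and Cx3cr1, the fractalkine receptor, from 5.08 to 0.18 FPKM. The other 9 did not pass as deposited. Among these 9, Ly6c2 had means of 17.0 FPKM in control and 30.3 FPKM in hyphae, and Pf4 26.3 and 31.4 FPKM. The 15 markers summed to 512 to 696 FPKM in control and 405 to 542 FPKM in hyphae. Lymphatic markers summed to 162 to 256 FPKM in control and 386 to 575 FPKM in hyphae, and 2 of the 4 tested rose (3 after rescaling). Much of that sum was Lyve1, with means of 102 FPKM in control and 364 FPKM in hyphae. Ccl21a overlapped, at 71.45 to 127.31 FPKM in control and 67.25 to 103.06 FPKM in hyphae. The part of these cells in the Mrc1 values was not tested.

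Siglecf (Entrez 233186), a sialic acid-binding lectin, was the lowest member. Its levels were 2.12, 2.68 and 2.97 FPKM in control, 1.08, 2.61 and 1.38 FPKM in conidia, and 1.41, 2.06 and 0.93 FPKM in hyphae. All hyphae libraries lay below all control libraries, whereas conidia replicate 2 lay within the control range. The difference from control was −0.56 in hyphae (SE 0.24, adjusted p = 0.0618) and −0.45 in conidia (SE 0.24, adjusted p = 0.296), neither passing. The hyphae difference passed without conidia replicate 2 (adjusted p = 0.0257) or without hyphae replicate 2 (adjusted p = 0.0365), and it was −0.28 after rescaling (adjusted p = 0.316). Eosinophils also carry Siglec-F. Of their 7 markers, the peroxidase gene Epx was listed at 0 to 0.04 FPKM, the granule protein gene Prg2 at 0.06 to 1 FPKM and the eotaxin receptor gene Ccr3 at 0.02 to 0.14 FPKM in the 9 libraries, while Ear6 reached 3.24 FPKM, Alox15 3.37 FPKM and Il5ra 1.48 FPKM. The 7 markers summed to 2.94 to 6.37 FPKM in control, 4.14 to 4.75 FPKM in conidia and 2.30 to 3.69 FPKM in hyphae, and of the 2 that were tested 1 fell in hyphae against control (0 after rescaling). Their part in the Siglecf values was not tested.

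Itgax (Entrez 16411) encodes CD11c, the alpha X integrin chain of alveolar macrophages and dendritic cells. It was measured at 8.86, 10.27 and 11.05 FPKM in control, 11.02, 13.85 and 6.78 FPKM in conidia, and 6.26, 11.12 and 6.19 FPKM in hyphae. In hyphae, replicates 1 and 3 were below every control library and replicate 2 above every control library. Hyphae differed from control by −0.36 (SE 0.27, adjusted p = 0.260), a sign that flipped to 0.03 on rescaling, and conidia differed from control by 0.02 (95% interval −0.59 to 0.62). Of the 10 dendritic cell markers, 5 fell and 0 rose in hyphae against control (3 fell after rescaling), and their summed level was 48.6 to 55.8 FPKM in control, 47.2 to 56.9 FPKM in conidia and 20.7, 34.5 and 47.9 FPKM in hyphae. Their part in the Itgax values was not tested.

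Ear2 (Entrez 13587) encodes a secreted ribonuclease of the eosinophil-associated family and was among the 3 highest members. Reads of Ear2 are hard to separate from those of its near-copy Ear1. The coding sequences of the 2 genes were 95.73% identical (20 differences in 468 aligned bases), with an identical run of 96 bases, so each value depends on how the authors' counting split shared reads. The first 120 bases of both open reading frames, from mouse transcripts of the GENCODE annotation, are shown because they let a reader see how few positions can assign a read; capitals mark the 4 bases at which they differ.
Ear2: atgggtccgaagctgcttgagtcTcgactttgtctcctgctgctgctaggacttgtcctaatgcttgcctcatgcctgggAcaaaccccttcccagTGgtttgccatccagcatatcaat
Ear1: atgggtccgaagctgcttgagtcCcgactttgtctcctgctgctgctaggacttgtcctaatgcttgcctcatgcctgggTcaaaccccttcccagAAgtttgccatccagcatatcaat

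Ear2 stood at 28.20, 47.99 and 53.99 FPKM in control, 26.55, 50.02 and 22.39 FPKM in conidia, and 24.99, 41.41 and 13.90 FPKM in hyphae. Conidia replicate 2 and hyphae replicate 2 lay within the control range, and the groups overlapped throughout. Ear1 was lower than Ear2 in every library, at 8.19, 17.80 and 18.37 FPKM in control, 10.42, 16.87 and 9.69 FPKM in conidia, and 9.14, 21.95 and 7.04 FPKM in hyphae. The pair shared the highest library in each of the 3 groups. Ear2 differed from control by −0.75 in hyphae (SE 0.42, adjusted p = 0.147; −0.34 rescaled) and by −0.42 in conidia (SE 0.42, adjusted p = 0.578). Without hyphae replicate 2 the hyphae difference was −1.12 and passed (adjusted p = 0.0476).

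Fabp1 (Entrez 14080), the liver-type fatty acid-binding protein, had the widest relative spread of the members in control and in conidia (CV 54.4% and 89.1%), but not in hyphae, where its CV of 39.6% was below those of Ear2 (51.7%) and Krt79 (42.0%). It was measured at 2.28, 7.86 and 8.19 FPKM in control, 1.33, 6.11 and 1.60 FPKM in conidia, and 4.10, 6.23 and 2.80 FPKM in hyphae. Control replicate 1 sat with the low libraries of the other groups, conidia replicate 2 sat with the high ones, and all groups overlapped. The highest conidia library was 4.59 times the lowest, whereas for Car4 the same ratio was 1.29. The difference from control was −0.88 in conidia (SE 0.52, adjusted p = 0.346) and −0.31 in hyphae (SE 0.52, adjusted p = 0.616), the second becoming 0.04 on rescaling. With about 14 to 83 fragments behind each value and this spread, the 95% interval for conidia against control ran from −2.05 to 0.30.

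Car4 (Entrez 12351) encodes a membrane-bound carbonic anhydrase that marks mature alveolar macrophages and also a class of lung capillary endothelium. Its levels were 83.67, 101.56 and 106.43 FPKM in control, 122.08, 112.77 and 144.86 FPKM in conidia, and 97.61, 101.85 and 115.53 FPKM in hyphae. Car4 was the 1 member whose conidia libraries all lay above the control libraries, and for no member did they all lie below; over all tested genes, 29.8% had conidia and control libraries that did not overlap. The conidia difference was 0.38 (SE 0.13, unadjusted p = 0.0194, adjusted p = 0.162), which did not pass; rescaled and without conidia replicate 2 it was 0.60 and passed (adjusted p = 0.0498). In hyphae against control the difference was 0.11 as deposited (adjusted p = 0.471) and 0.54 after rescaling (SE 0.16, adjusted p = 0.0155), and it did not pass at equal upper quartiles (0.36, adjusted p = 0.0546). The rescaled call was lost without control replicate 1 (adjusted p = 0.0549) or without hyphae replicate 3 (adjusted p = 0.0532).

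The 9 markers of Car4-high capillary endothelium summed to 449 to 584 FPKM in control, 545 to 678 FPKM in conidia and 387 to 488 FPKM in hyphae. Cyp4b1 was the highest of them in every library and weighed most in these sums. After rescaling it stood at 176 to 236 FPKM in control, 210 to 328 FPKM in conidia and 203 to 279 FPKM in hyphae. Sirpa is also in the list of general macrophage markers, and it fell in hyphae against control (−1.10, or −0.69 rescaled). Between hyphae and control, 5 of the 9 fell and 1 rose as deposited (2 fell and 2 rose after rescaling), with Apln, a ligand gene, falling on both scales (−1.57 and −1.19 rescaled) and Prx, the gene of periaxin, rising on both (1.14 and 1.56 rescaled). General endothelial markers summed to 1543 to 2156 FPKM in control and 2222 to 2394 FPKM in hyphae. Their part in the Car4 values was not tested.

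Plet1 (Entrez 76509), a surface glycoprotein of CD11c-positive lung macrophages, showed a rescaled rise that was steadier. It stood at 40.88, 31.73 and 32.19 FPKM in control, 37.56, 49.66 and 35.01 FPKM in conidia, and 35.35, 55.91 and 41.61 FPKM in hyphae. On the deposited scale control replicate 1 overlapped with the hyphae libraries, and after rescaling the 2 groups did not overlap. The hyphae difference was 0.32 as deposited (SE 0.19, adjusted p = 0.171) and 0.74 after rescaling (SE 0.20, adjusted p = 0.0111), the call holding at equal upper quartiles (0.56, adjusted p = 0.0352) and the rescaled call being kept in all 9 fits without 1 library. Conidia differed from control by 0.21 (95% interval −0.22 to 0.64). Which cells of the whole lung carried the Plet1 values was not tested.

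Krt79 (Entrez 223917), an intermediate filament keratin that recurs in alveolar macrophage signatures, was measured at 3.34, 3.02 and 4.90 FPKM in control, 4.61, 3.70 and 2.72 FPKM in conidia, and 5.44, 6.64 and 2.63 FPKM in hyphae. In hyphae, replicates 1 and 2 were above and replicate 3 below all control libraries. The hyphae difference was 0.27 (SE 0.28, adjusted p = 0.435; 0.61 rescaled, adjusted p = 0.108; 0.92 rescaled without hyphae replicate 3, adjusted p = 0.0151), and the conidia difference was −0.02 (95% interval −0.67 to 0.62). The 8 markers of squamous and basal epithelium, 6 of them keratins, summed to 1.67 to 10.4 FPKM in control, 1.26 to 4.47 FPKM in conidia and 1.53 to 3.83 FPKM in hyphae. Krt15 reached 4.73 FPKM and Krt5 1.82 FPKM in control replicate 1, and 0 of the 1 tested (Krt15) passed in any comparison. Their part in the Krt79 values was not tested.

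Members whose libraries did not overlap between groups were also counted. Between hyphae and control 3 of 9 members did not overlap, all with hyphae lower (Pparg, Mrc1 and Siglecf), whereas 70.7% of all tested genes did not overlap. In hyphae against conidia 0 of 9 did not overlap, against 59.9% of all tested genes. As deposited, hyphae and conidia differed most, by size, in Fabp1 (0.57, 95% interval −0.61 to 1.74) and least in Plet1 and Siglecf (0.11 and −0.11), whereas after rescaling Fabp1 was again the furthest apart (0.84) and Ear2 and Pparg the closest (−0.01 and −0.03). The comparisons share libraries and are not independent of each other.

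Within groups, several members rose and dipped in the same libraries. Conidia replicate 2 was the highest conidia library for 7 of 9 members, all but Car4 and Krt79, and it was the highest for 50.3% of all tested genes. Hyphae replicate 2 was the highest hyphae library for 7 of 9, all but Car4 and Pparg, and the highest for 20.5% of all tested genes. Hyphae replicate 3 was the lowest for 6 of 9, against 44.4% of all tested genes. Ear2, Fabp1, Siglecf and Itgax had their lowest control value in replicate 1, their highest control value in replicate 3, their highest conidia value in replicate 2 and their highest and lowest hyphae values in replicates 2 and 3. Neutrophil markers, at 136 to 158 FPKM in control, summed to 704, 2011 and 6197 FPKM in hyphae replicates 1, 2 and 3, so the neutrophil sum was highest in the hyphae library where these 4 members were lowest. Its part was not tested.

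**Figure D4:**
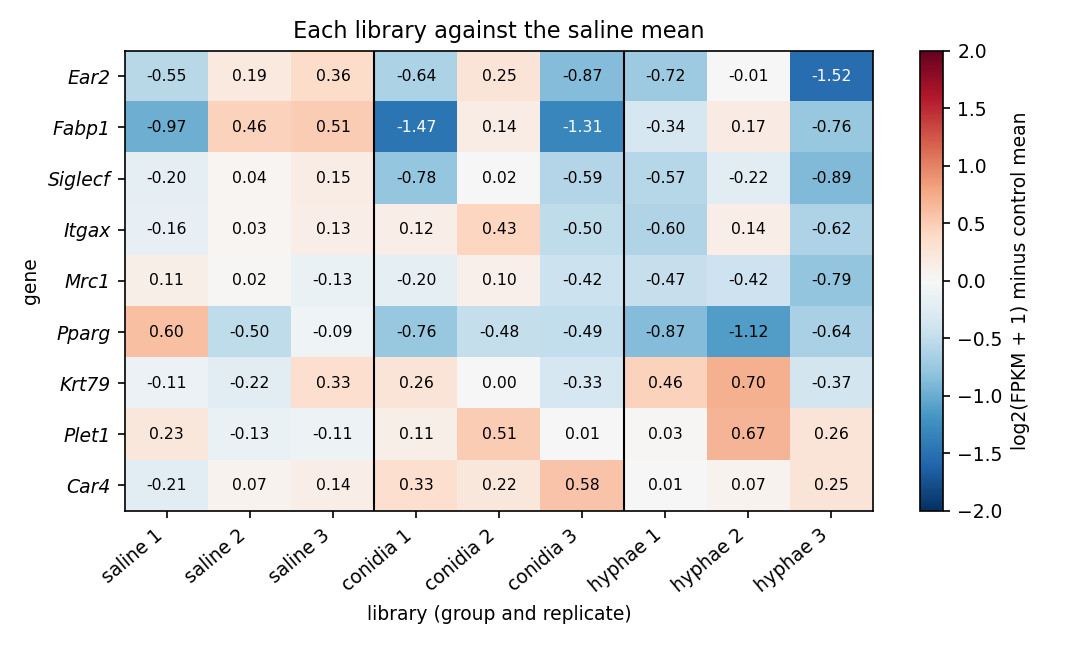
Log2(FPKM + 1) of the 9 genes (rows) in the 9 libraries (columns) minus the mean of the control (saline) libraries, as deposited; red is higher and blue lower than that mean. Ear2, Fabp1 and Siglecf share low values in conidia replicates 1 and 3 and in hyphae replicate 3 (down to −1.52 for Ear2) and lie between −0.22 and 0.25 in conidia replicate 2 and hyphae replicate 2.

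The promoter windows of Fabp1, Siglecf, Ear2 and Itgax, the 4 members with this shared library pattern, are shown with 4 motifs of macrophage regulators. The windows run from 250 bases before to 50 after the start in RefSeq on GRCm38.p6, not the build mm9 named in the submitters' processing notes, and are written 5′ to 3′ on the gene's strand, which is plus for all 4. Fabp1 lies at chr6:71199629-71199928, Siglecf at chr7:43351091-43351390, Ear2 at chr14:44102404-44102703 and Itgax at chr7:128129300-128129599. Capitals mark matches on either strand to GAGGAA (PU.1), AGGTCA (the half-site of nuclear receptors such as PPAR-gamma), TTGCNNAA (C/EBP) or CACGTG (the E-box of BHLHE40 and BHLHE41), and no matches overlap in these windows.
Fabp1: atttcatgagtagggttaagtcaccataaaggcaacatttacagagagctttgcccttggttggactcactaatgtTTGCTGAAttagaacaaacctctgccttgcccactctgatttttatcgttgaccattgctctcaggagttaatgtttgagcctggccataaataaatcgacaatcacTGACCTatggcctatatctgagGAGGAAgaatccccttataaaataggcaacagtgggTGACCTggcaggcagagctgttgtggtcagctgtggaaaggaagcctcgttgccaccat
Siglecf: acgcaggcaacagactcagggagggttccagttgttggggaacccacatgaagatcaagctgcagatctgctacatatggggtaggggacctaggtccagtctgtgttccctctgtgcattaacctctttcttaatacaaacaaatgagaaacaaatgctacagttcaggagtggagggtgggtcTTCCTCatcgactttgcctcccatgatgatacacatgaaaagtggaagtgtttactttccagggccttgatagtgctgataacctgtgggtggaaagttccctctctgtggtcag
Ear2: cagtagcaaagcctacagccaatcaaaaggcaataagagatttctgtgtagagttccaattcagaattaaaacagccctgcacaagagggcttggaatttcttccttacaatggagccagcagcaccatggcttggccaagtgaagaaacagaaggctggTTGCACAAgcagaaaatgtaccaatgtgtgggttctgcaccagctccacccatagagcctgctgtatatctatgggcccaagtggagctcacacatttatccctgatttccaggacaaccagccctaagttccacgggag
Itgax: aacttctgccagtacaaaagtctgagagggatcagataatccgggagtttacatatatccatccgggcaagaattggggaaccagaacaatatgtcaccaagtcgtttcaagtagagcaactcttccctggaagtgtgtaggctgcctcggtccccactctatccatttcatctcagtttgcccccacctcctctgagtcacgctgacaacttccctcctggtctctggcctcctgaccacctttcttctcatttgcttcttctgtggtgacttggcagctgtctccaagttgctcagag

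Fabp1 held 1 PU.1 motif, 2 nuclear receptor half-sites and 1 C/EBP motif, Siglecf held 1 PU.1 motif, Ear2 held 1 C/EBP motif and Itgax held 0 of the 4 motifs. The 9 members have 11 such windows, 3 of them for Pparg, and 4 of the 11 held a PU.1 motif, 4 a half-site, 4 a C/EBP motif and 0 the E-box. Counted by gene, these were 4, 3, 4 and 0 of the 9 members. The same motifs stood in 28.28%, 16.26%, 10.8% and 7.15% of 32851 promoter windows of the same length. Each match is a run of letters in a window and says nothing on binding.

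The wider programme was read from lists of other genes, beginning with 24 further genes of alveolar macrophages. Under hyphae, 3 of the 24 rose and 8 fell relative to control, which became 5 and 3 after rescaling, with a median of −0.35 (0.00 rescaled). Bhlhe40, a transcription factor that sustains self-renewal of these cells, rose most, from 34.16, 23.79 and 30.53 FPKM in control to 138.22, 196.36 and 234.62 FPKM in hyphae (2.63, SE 0.25, adjusted p = 6.84e-05; 3.05 rescaled). Conidia libraries held 66.82, 39.75 and 43.50 FPKM, all above the control libraries, but the difference of 0.72 did not pass (adjusted p = 0.156). Bhlhe41, in the same list, had means of 7.07 FPKM in control and 7.43 FPKM in hyphae, and the 2 groups overlapped. Which lung cells carried the Bhlhe40 rise was not tested. Perp, a desmosome-linked membrane protein also made by epithelium, rose by 1.06 (1.48 rescaled). Cd200r1, an inhibitory receptor of macrophages, fell from 1.47 ± 0.08 to 0.10 ± 0.09 FPKM (SD, n = 3 each; −1.17, adjusted p = 8.94e-05; −1.03 rescaled). Cd2, an adhesion molecule better known from lymphocytes, fell by 1.45 (rescaled −1.07, adjusted p = 0.0557). Its adjusted p was 0.0529 and 0.0511 without control replicate 2 or hyphae replicate 1. B cell markers summed to 84.3 to 154 FPKM in control and 20.0 to 55.8 FPKM in hyphae. T cell markers summed to 21.2 to 29.3 FPKM in control and 7.94 to 14.2 FPKM in hyphae. The part of these lymphocytes in the Cd2 values was not tested.

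**Figure D5:**
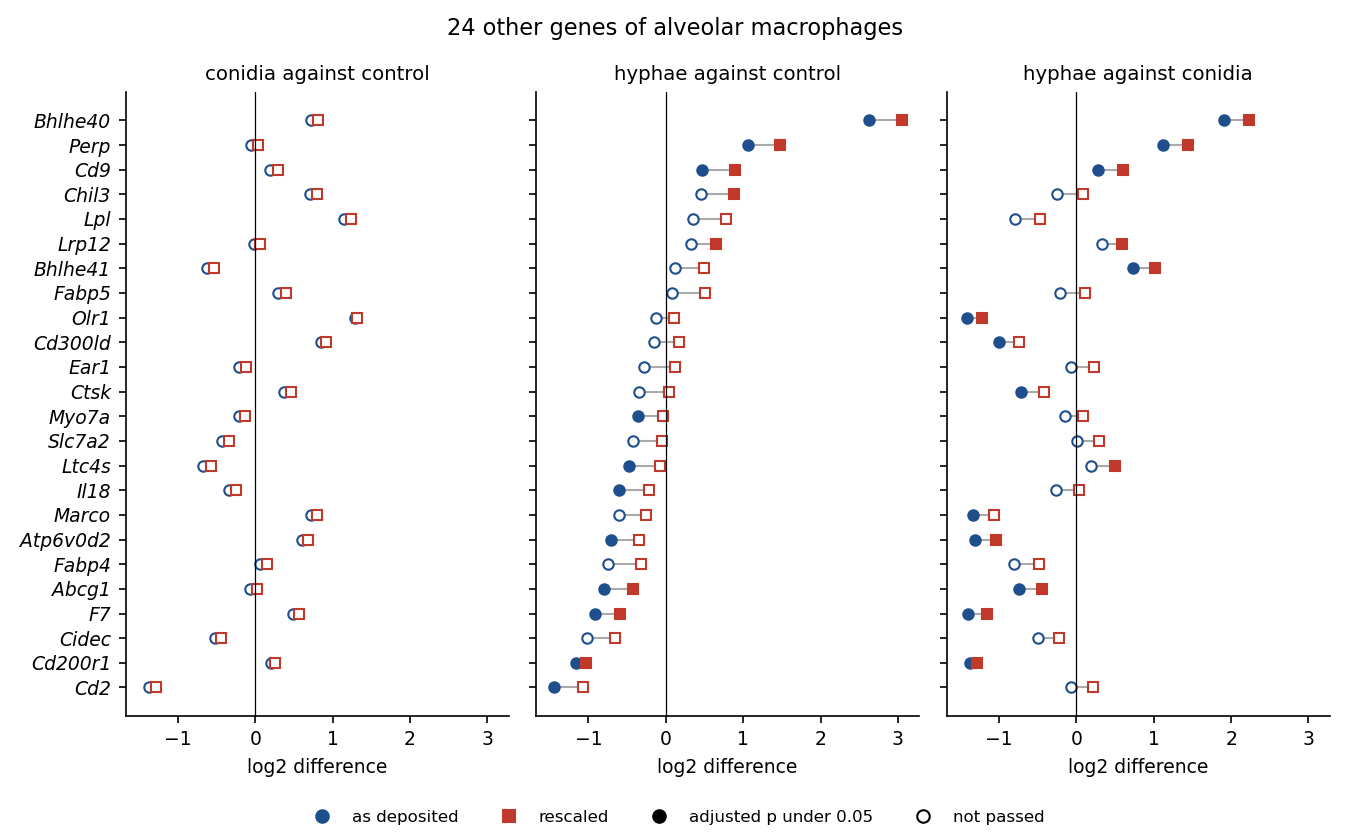
Log2 differences (horizontal axes) of 24 other alveolar macrophage genes in 3 comparisons, as deposited (blue circles) and rescaled (red squares); filled symbols passed an adjusted p of 0.05. Bhlhe40 and Perp are highest and Cd200r1 is among the lowest in hyphae against control on both scales, and no gene passes in conidia against control.

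Between the fungal forms, 4 of these 24 genes were higher in hyphae than in conidia and 8 lower (6 and 5 after rescaling, median −0.26 and 0.06). Olr1, a receptor for oxidised lipoprotein, stood at 8.75, 3.31 and 2.75 FPKM in conidia and 0.74, 1.44 and 0.95 FPKM in hyphae (−1.42, adjusted p = 0.0055, and −1.22 rescaled). Its control libraries held 1.17, 1.08 and 1.40 FPKM. F7, coagulation factor VII, stood at 8.91, 7.36 and 7.11 FPKM in conidia and 2.89, 2.73 and 1.48 FPKM in hyphae (−1.41, adjusted p = 0.000285, and −1.16 rescaled). Its control libraries held 5.47, 5.32 and 4.97 FPKM. Marco stood at 17.58, 7.38 and 11.31 FPKM in conidia and 3.71, 6.33 and 2.46 FPKM in hyphae (−1.33, adjusted p = 0.0284), which did not pass after rescaling (−1.06, adjusted p = 0.0815). The Marco call was also lost in 4 of 9 fits without 1 library (without conidia replicate 1 or 3 or hyphae replicate 1 or 3), with adjusted p-values of 0.0592 to 0.0928. In conidia against control 0 of the 24 passed and 11 had an unadjusted p under 0.05. An unadjusted p under 0.05 was also found for 2909 of the 13761 genes tested and for 1 of the 9 members. Without conidia replicate 2, 5 of the 24 passed, 2 higher and 3 lower, and 0 of the 9 members. In that fit 1535 of the 13761 genes tested passed, 657 higher and 878 lower.

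Of 20 lipid-handling genes regulated by PPAR-gamma, 3 rose and 6 fell in hyphae against control (4 and 2 after rescaling, median −0.33 and 0.08), and 11 did not pass. Of the 6 that fell, Nceh1, a cholesteryl ester hydrolase, was at −0.37 as deposited and 0.04 after rescaling. Nr1h3, the oxysterol receptor LXR-alpha, fell from 24.4 ± 1.36 to 8.90 ± 1.09 FPKM (SD, n = 3 each; −1.37, adjusted p = 5.36e-05; −0.97 rescaled), and Abcg1, a cholesterol exporter, fell by 0.80 (−0.42 rescaled, adjusted p = 0.0439). Scarb1, a lipoprotein receptor, rose by 1.47 (1.90 rescaled), and the metabolic switch Pdk4 rose by 1.36 (1.74 rescaled), a call lost without control replicate 2 or 3 or hyphae replicate 3 (0.82 without the last; adjusted p 0.0871 to 0.109). In conidia against control 1 of the 20 passed. This was Angptl4, a lipase inhibitor, at 8.09, 17.52 and 12.27 FPKM in control and 95.79, 46.42 and 92.58 FPKM in conidia (2.53, SE 0.32, adjusted p = 0.0244; 2.61 rescaled, adjusted p = 0.0453). That call was lost in 6 of 9 fits without 1 library (any control library, conidia replicate 1 or 3, or hyphae replicate 2), at 2.27 to 2.86 over the 9 fits and adjusted p-values up to 0.155. Hyphae libraries were intermediate, at 26.60, 21.84 and 29.57 FPKM, above control (1.04, adjusted p = 0.0189; lost without control replicate 1 or hyphae replicate 3, adjusted p = 0.0681 and 0.0568) and below conidia (−1.49, adjusted p = 0.0043). Plin2, the coat protein of lipid droplets, was 0.96 lower in hyphae than in conidia (adjusted p = 0.00397, and −0.63 rescaled, adjusted p = 0.061). Its control mean was 47.44 FPKM, beside 84.27 FPKM in conidia and 43.17 FPKM in hyphae.

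Among 24 signals and transcription factors of alveolar macrophage development, 23 were tested, and 4 rose and 5 fell in hyphae against control (7 and 3 after rescaling), beside 0 in conidia against control. Bhlhe40, among the 4, and Nr1h3, among the 5, were already counted in the lists above. Of the 5 that fell, Rxra, the partner receptor of PPAR-gamma, was at −0.36 as deposited and 0.05 after rescaling. Klf4, a Krüppel-like factor, rose from 62.4 ± 2.38 to 227 ± 34.5 FPKM (SD, n = 3 each; 1.83, adjusted p = 2.43e-05; 2.26 rescaled), and Cebpb, a C/EBP factor, rose by 1.63 (2.06 rescaled). Both are expressed in many lung cells. The ligand Csf2 was at 2.94, 4.48 and 3.19 FPKM in control, 26.51, 8.16 and 15.91 FPKM in conidia and 1.67, 14.19 and 20.77 FPKM in hyphae. All conidia libraries exceeded the control libraries and the hyphae libraries spread to both sides, and neither difference passed (1.85, adjusted p = 0.191, and 1.10, adjusted p = 0.205). The receptor chains differed between the fungal forms. Csf2rb had means of 7.58 FPKM in control, 24.06 FPKM in conidia and 10.15 FPKM in hyphae, and Csf2ra 36.98, 56.67 and 35.37 FPKM. For both, all conidia libraries lay above all control libraries, though neither passed in conidia against control. Csf2rb was 1.23 lower in hyphae than in conidia (adjusted p = 0.015) and Csf2ra 0.70 lower (adjusted p = 0.0128), and neither passed after rescaling (−0.92, adjusted p = 0.0788, and −0.37, adjusted p = 0.188). Both chains are also carried by neutrophils, whose markers summed to 877 to 3170 FPKM in conidia and 704 to 6197 FPKM in hyphae, and this part was not tested.

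General macrophage markers gave a further reference. Of 12, 1 rose and 4 fell in hyphae against control (4 and 3 after rescaling) and 0 passed in conidia against control. Mpeg1, the pore-forming perforin-2, fell by 1.09 (−0.68 rescaled, adjusted p = 0.0199), Fcgr1, the high-affinity IgG receptor, fell by 1.01 (−0.84 rescaled), and Cd14, the endotoxin co-receptor, rose by 1.74 (2.16 rescaled), a call lost without control replicate 2 or 3 or hyphae replicate 2 or 3 (adjusted p 0.0586 to 0.0921). Fcgr1 was a low gene, with a mean of 1.55 FPKM in control and values of 0.16 to 0.34 FPKM in hyphae, so its fall is understated on the log2(FPKM + 1) scale. Cd68, a lysosomal glycoprotein of macrophages, stood at 24.51, 19.75 and 25.59 FPKM in control, 52.67, 40.45 and 39.00 FPKM in conidia and 20.25, 27.37 and 13.81 FPKM in hyphae. Its hyphae level was 1.11 below conidia (adjusted p = 0.00333; −0.79 rescaled), and its conidia difference from control of 0.89 did not pass (adjusted p = 0.0938).

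The genes whose course over the 9 libraries was closest to each member were found by the root-mean-square difference of log2(FPKM + 1) relative to the control mean. The closest were Treml2 for Car4 (0.0971), Ccl21a for Fabp1 (0.234), S100b for Pparg (0.128), Lilra5 for Ear2 (0.259), Fgd5 for Krt79 (0.199), Lpp for Mrc1 (0.0764), Creb3l2 for Itgax (0.178), Castor1 for Plet1 (0.170) and Pdia5 for Siglecf (0.114). The measure favours genes with small changes and is smaller for members that varied less. One of the 9 appeared among the 2 closest genes of another, Siglecf being the second closest to Ear2 (0.303).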

How the data were processed

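Whole-lung poly(A) RNA was sequenced in 9 libraries (BGISEQ, per the labels' protocols). The authors deposited FPKM values with 2 decimals, per the file headers, 1 file per library. Per the submitters' processing notes, HISAT, Bowtie2 and mm9 were used, with no version or role recorded, and no source at hand names the program that computed FPKM. Values were transformed to log2(FPKM + 1), so differences of low genes are understated. Genes with at least 1 FPKM in 3 of the 9 libraries were fitted with limma 3.58.1 in R 4.3.3 (trend, robust empirical Bayes, 1 model, a term per group). Tests were two-sided, with Benjamini-Hochberg adjustment over all 13761 genes. An exact permutation test of 3 against 3 libraries cannot go below p = 0.1. Intervals are 95%.

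The members and lists were chosen with earlier results of these data known. From other lists the text names, by rule, up to 4 genes per comparison that passed, did not overlap and changed most, 17 level checks, and the 2 genes most like each member. Abcg1, Nceh1, Rxra, Epx, Ccr3, Ear6, Alox15, Krt5, Krt15, Bhlhe41, Ly6c2 and Pf4 were named after their values were seen. Alternatives were other pseudocounts, filters and scalings, fits of 2 groups, a replicate block and leaving out each library. The calculation was tested on simulated data. Depth was estimated from the spacing of low values, and no counting interval was computed. Sequences came from RefSeq promoters (all 9 members matched) and GENCODE transcripts, read with Python 3.11.15.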

Additional observations from a re-analysis of the deposited data

How the results depend on the processing

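Of the 9 genes, Fabp1 and Siglecf rest on the fewest estimated fragments, and Fabp1 and Ear2 have the largest SE. In conidia against control the number of all genes passing was 95, and it became 43 with no filter on low values, 47 with median-of-ratios rescaling, 49 with equal upper quartiles and 13 with rescaling and a replicate block together, the last added after the data were seen. Leaving out 1 library gave 0 to 1535 genes: 0 without any 1 control library or without conidia replicate 3 (where 1878 to 2631 genes had an unadjusted p under 0.05 in limma), 1 without conidia replicate 1, and 1535 without conidia replicate 2. The count was 7 if hyphae replicate 2, and 233 if hyphae replicate 1, was left out. For the 9 genes that count was 0 in each of these fits, the combined setting included. Of the 24 other alveolar macrophage genes, 0 passed in conidia against control, 1 in a fit of those 2 groups alone, and 0 to 5 without 1 library. In hyphae against control 11 of the 24 passed, 7 with rescaling and a replicate block, and 7 to 12 without 1 library. The 2 members that passed in hyphae against control became 2 to 3 without 1 library. In hyphae against conidia 0 of the 9 passed, and 0 to 1 without 1 library. With a filter of 1 FPKM in all 9 libraries Siglecf gave no value, and in a fit of hyphae and control alone it passed (adjusted p = 0.038). The 2 members that passed in hyphae against control as deposited (Pparg and Mrc1) kept their sign under the alternatives run. Some differences that passed only in alternative fits did not. In rescaled fits without 1 library, Ear2 in hyphae against control reached 0.04 and Mrc1 in hyphae against conidia reached 0.01. Of other lists, 2 genes that fell in hyphae, Rxra and Nceh1, were at 0.05 and 0.04 after rescaling.

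Deviations of same-numbered libraries from their group means correlated from −0.31 to 0.42, and those of differently numbered libraries from −0.54 to 0.30. With 3 libraries per group, these correlations cannot settle whether the replicate numbers paired the libraries. With the replicate number as a block, 57 genes passed in conidia against control and 1 of the 9 members (Mrc1, adjusted p = 0.0305) in hyphae against conidia; Siglecf passed in hyphae against control (adjusted p = 0.0366).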
